A study of Mus musculus with 25 samples.

Results

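The genes described here encode the mouse insulins (Ins1 and Ins2), islet amyloid polypeptide or amylin (Iapp), and the proteins that cut, trim, amidate and pack these hormones: the proprotein convertases Pcsk1 and Pcsk2, carboxypeptidase E (Cpe), the Pcsk2 chaperone Scg5, the Pcsk1 inhibitor Pcsk1n, the granule zinc transporter Slc30a8 and the amidating enzyme Pam. They were taken by gene symbol from the FPKM columns of all 4 deposited tables (fragments scaled to transcript length and library size). All 10 were present in every table, as 10 of 12822 genes in the HFD table, 15216 in the WT table, 17549 in the PBS table and 16958 in the db table. All 10 passed the filter on low values, a minimum of 1 FPKM reached by 2 or more libraries of a table.

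The study sequenced messenger RNA of mouse pancreatic islets, and its title names BAF60C, a SWI/SNF chromatin subunit encoded by Smarcd3, and type 2 diabetes. Values were given for 19 of the 25 samples, in 8 groups, and each sample was a pool from 3 or more mice. Whether replicate pools came from separate mice is not stated, so the p-values below rest on the spread between these libraries. The fit described below also draws on the spread of the other genes in a table. The HFD table held 2 libraries labelled flox/flox, HFD and 2 labelled BcBKO, HFD, from mice fed a high-fat diet for 3 months. The design text ties BcBKO to beta-cell-specific ablation and to Pdx1-cre, a Cre recombinase under the promoter of Pdx1, which is also active outside beta cells in the developing pancreas. The PBS table held 2 libraries each of CTR_PBS, KO_PBS and KO_REG3B-Fc, and the db table held 2 each of db_GFP and db_REG3B. REG3B is a secreted lectin and GFP a fluorescent marker protein, and PBS is a saline buffer. The labels do not spell out the knocked-out gene of the PBS table, the db genotype, the ages, or how REG3B, REG3B-Fc and GFP were given. The WT table held 5 libraries of wild-type islets with no partner group. Chow-fed samples (3 flox/flox and 3 BcBKO) were not analysed here.

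Beta cells make insulin as a single precursor chain. The signal peptide is removed on entry into the endoplasmic reticulum, disulphide bonds form, and in the secretory granule Pcsk1 and Pcsk2 cut after pairs of basic residues. Carboxypeptidase E then removes the basic residues, zinc carried in by Slc30a8 lets insulin crystallise, and amylin, which is cut by the same enzymes and stored in the same granule, is amidated by Pam. Mice carry 2 insulin genes, of which Ins1 is a retrotransposed copy of Ins2. Pcsk2, Cpe, Scg5, Pcsk1n and Pam are also made in alpha, delta and other neuroendocrine cells.

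The coding stretches around the paired basic residues are shown because they are the substrate that the other members of the group act on. They were read from GENCODE M21 transcripts (GRCm38), cover 36 bases each, 5′ to 3′, and the capitals mark the codons of the basic pair.
Ins1, residues 55 and 56 (arginine-arginine): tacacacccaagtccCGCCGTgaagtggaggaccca
Ins2, residues 55 and 56 (arginine-arginine): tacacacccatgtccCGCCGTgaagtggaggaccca
Ins1, residues 86 and 87 (lysine-arginine): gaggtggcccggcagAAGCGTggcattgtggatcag
Ins2, residues 88 and 89 (lysine-arginine): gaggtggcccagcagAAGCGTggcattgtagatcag
Iapp, residues 36 and 37 (lysine-arginine): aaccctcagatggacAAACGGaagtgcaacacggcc
Iapp, residues 76 and 77 (lysine-arginine): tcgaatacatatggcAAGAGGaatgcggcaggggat
Residues were counted from the start codon. The codons of both basic pairs were the same in Ins1 and Ins2, and each of the 3 precursors held 2 such pairs after residue 20. The coding sequence measured 327 bases in Ins1, 333 in Ins2 and 282 in Iapp. Ins1 and Ins2 were identical at 303 of 333 aligned positions (91.0%), so reads could have been assigned to the wrong insulin gene. How the authors counted such reads is not given in the sources used here, and the Ins1 to Ins2 ratios below carry that uncertainty.

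Ins1 lies on chromosome 19 (52264297 to 52265015, Entrez 16333), Ins2 on chromosome 7 (142678656 to 142679726, Entrez 16334) and Iapp on chromosome 6 (142298425 to 142303820, Entrez 15874), all in RefSeq GRCm38.p6 coordinates and all protein coding. The convertase genes are Pcsk1 on chromosome 13 (75089420 to 75134861, Entrez 18548) and Pcsk2 on chromosome 2 (143546133 to 143816284, Entrez 18549). Their partners are Pcsk1n on chromosome X (7919822 to 7924410, Entrez 30052) and Scg5 on chromosome 2 (113776313 to 113829091, Entrez 20394). Cpe lies on chromosome 8 (64592542 to 64693109, Entrez 12876), Pam on chromosome 1 (97821091 to 98095853, Entrez 18484) and Slc30a8 on chromosome 15 (52295553 to 52335798, Entrez 239436). These 7 genes are protein coding as well.

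The upstream windows of Ins1 and Iapp are shown because these genes parted in the db comparison below. The table of RefSeq promoters used here (GRCm38.p6) was matched for 7 of the 10 genes. Both windows are the 250 bases before the gene start on the plus strand, 5′ to 3′, with 2 motifs in capitals on either strand: CATCTG, the E box letters known from insulin promoters, and TAAT, the core bound by homeodomain factors such as Pdx1.
Ins1, chr19:52264047-52264296: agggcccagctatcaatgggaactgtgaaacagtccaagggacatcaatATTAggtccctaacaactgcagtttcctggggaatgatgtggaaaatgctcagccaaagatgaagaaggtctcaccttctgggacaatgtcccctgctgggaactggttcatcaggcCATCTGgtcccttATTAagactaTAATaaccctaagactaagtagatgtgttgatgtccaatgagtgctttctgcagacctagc
Iapp, chr6:142298175-142298424: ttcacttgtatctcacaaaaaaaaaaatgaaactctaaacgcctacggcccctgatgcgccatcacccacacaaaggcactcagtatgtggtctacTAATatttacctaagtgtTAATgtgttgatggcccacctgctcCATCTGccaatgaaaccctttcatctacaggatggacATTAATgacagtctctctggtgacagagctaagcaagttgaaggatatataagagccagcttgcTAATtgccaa
Each window held CATCTG 1 time, and TAAT was found 3 times before Ins1 and 5 times before Iapp, with 2 of the Iapp matches overlapping. Over 32851 promoters of the same table, 14.4% of such windows held CATCTG and 54.9% held TAAT. The matches are letters in a window and are not evidence of binding.

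Each library held 10402 to 12553 genes at 1 FPKM or more, and the read depth behind the values is unknown. Smarcd3, as the title names BAF60C, was at 2.57 and 2.55 FPKM (flox/flox, HFD) and 3.11 and 2.40 FPKM (BcBKO, HFD). In the PBS table its FPKM were 1.03 and 1.15 for CTR_PBS, 0.750 and 1.09 for KO_PBS and 1.28 and 1.21 for KO_REG3B-Fc. A gene-level value of whole islets can hold transcripts of undeleted exons and of other cells, and neither knockout comparison passed for Smarcd3, so the groups are called as the libraries were labelled. Smarcd3 was higher in KO_REG3B-Fc than in KO_PBS (0.23, adjusted p = 0.0339) and lower in db_REG3B than in db_GFP (-0.67, adjusted p = 0.00102), by the limma fit described below. Reg3b, the gene of the agent named in 2 groups, was at 21.8 and 26.5 FPKM in db_GFP and lower in db_REG3B, at 10.4 and 9.98 FPKM (-1.16, adjusted p = 6.75e-06). It was at 667 and 634 FPKM in CTR_PBS, higher in KO_PBS (1227 and 1181 FPKM, 0.89, adjusted p = 2.57e-07), and lower in KO_REG3B-Fc (304 and 312 FPKM) than in KO_PBS (-1.96, adjusted p = 8.92e-09). The labels do not say that islets were made to express it, so this transcript does not check them. The beta cell markers were present in every library (28.6 to 71.7% of summed FPKM). Acinar markers, digestive enzymes of the exocrine pancreas, made up 2.87 to 10.5% of all FPKM in the HFD table. Their share was 7.23 to 54.6% in the WT table and 17.3 to 42.2% in the PBS table, and it stayed at or under 0.159% in the db table. WT replicate 4 stood apart from the other WT libraries, with 7.23% acinar transcripts. In whole islets, fewer cells of a type and less RNA per cell cannot be told apart.

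Insulin took a large share of islet messenger RNA and the processing genes a small one. Ins2 was the most abundant transcript in all 19 libraries, from 246415 FPKM in a db_GFP library to 793655 FPKM in a flox/flox, HFD library. Ins1 ranked between 2 and 4, and Iapp between 3 and 16. Ins1 and Ins2 together made up 27.0 to 67.8% of summed FPKM.

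Among the 7 processing genes Cpe was the highest and Pcsk1 the lowest by mean in each group, and the order between them differed. Cpe had means from 1110.1 FPKM in KO_PBS to 2069 FPKM in BcBKO, HFD. In the db_GFP libraries Cpe (1962 ± 20.6 FPKM, SD, n = 2) was followed by Scg5 (1089 ± 3.59 FPKM), Pcsk2 (1066 ± 30.6 FPKM), Pcsk1n (959 ± 1.65 FPKM), Pam (350 ± 1.30 FPKM), Slc30a8 (151 ± 4.59 FPKM) and Pcsk1 (67.8 ± 1.55 FPKM). Scg5 and Pcsk2 were within their replicate spread of each other there. In CTR_PBS the order after Cpe was Pcsk2 (616 ± 1.99 FPKM), Scg5 (560 ± 6.79 FPKM), Slc30a8 (263 ± 9.52 FPKM), Pcsk1n (254 ± 1.85 FPKM), Pam (149 ± 2.51 FPKM) and Pcsk1 (92.2 ± 0.658 FPKM), with Slc30a8 and Pcsk1n within 1 SD of the former. Slc30a8 thus stood above Pcsk1n in CTR_PBS and far below it in db_GFP. The transcript of Pcsk1, which makes the first cut in proinsulin, was the lowest of the 10 in every group other than WT, and there too it was lowest by mean (85.6 ± 41.0 FPKM) but within the spread of Pam (88.6 ± 14.8 FPKM).

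**Figure D1:**
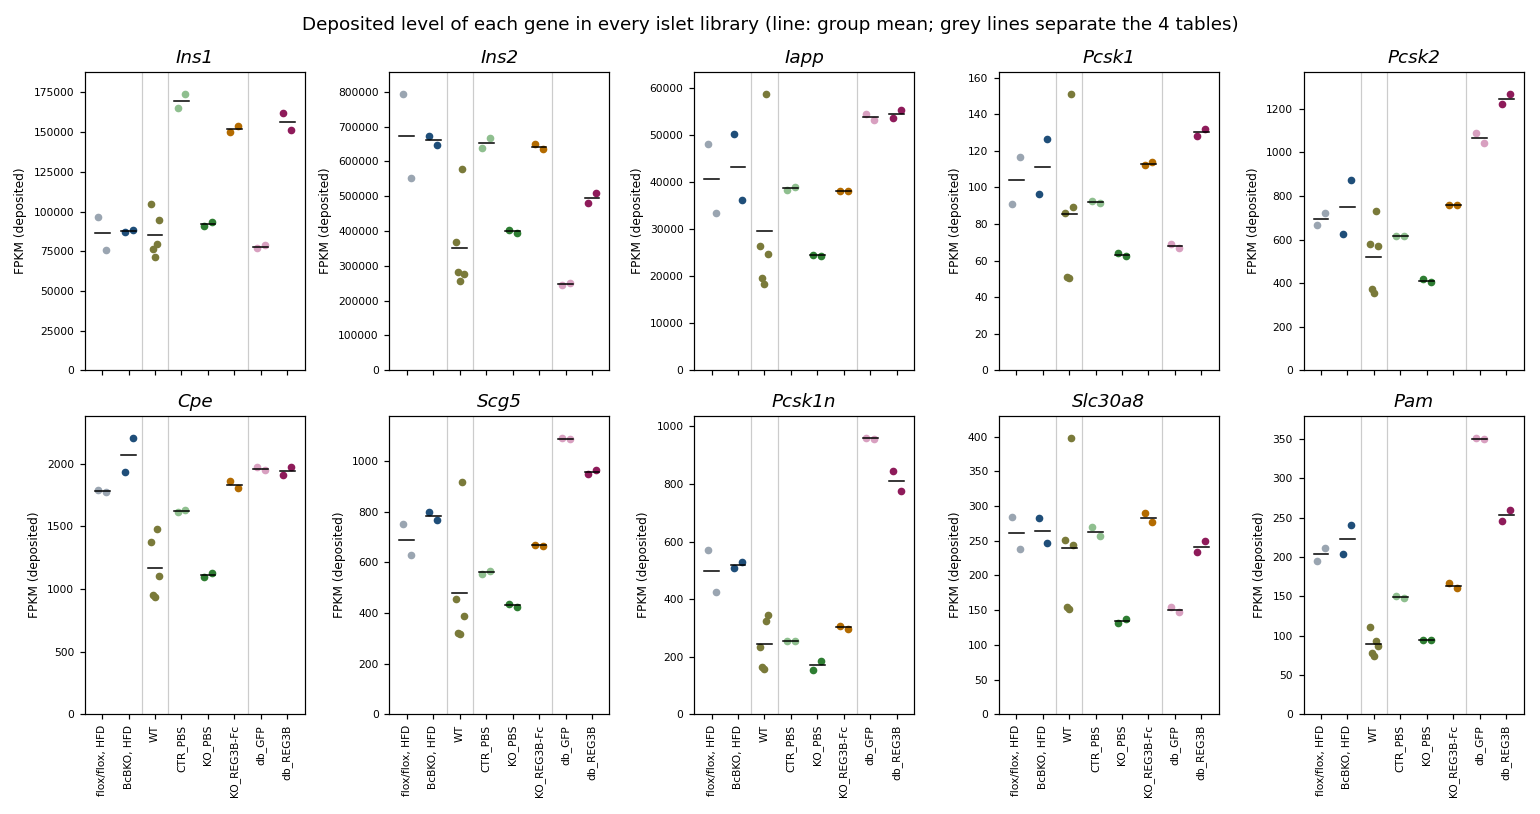
FPKM of the 10 genes (1 panel each, vertical axis from 0) in every library, by group, with a black line at the group mean and grey lines between the 4 tables, which were normalized separately. In the db panels Ins1, Ins2, Pcsk1 and Slc30a8 lie higher in both db_REG3B libraries than in both db_GFP libraries, Iapp and Cpe overlap, and Pam lies lower.

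The db comparison asked what REG3B changed in db islets. Transcripts of both insulins rose about as much as each other, and Pcsk1 and Slc30a8 rose with them, while Iapp and Cpe did not pass the test on the deposited scale and Pam fell. Pcsk2 was higher as deposited but lower (adjusted p = 0.0147 and 0.0153) under 2 of the scalings described below, where 10378 and 10809 of all 12507 genes were lower. Relative to insulin, Iapp, Pcsk2, Cpe, Scg5, Pcsk1n, Slc30a8 and Pam were lower in db_REG3B, 7 of the 8 genes, where 98.8% of all genes were lower and the median gene moved by -0.96, so this count is near the background. On the deposited scale 5 of the 10 genes were higher, where 12.2% of all 12507 genes tested were higher, and 3 were lower, where 30.8% of all genes were lower.

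Ins1 measured 77140 and 78764 FPKM in db_GFP and 162068 and 151084 FPKM in db_REG3B. Ins2 measured 246415 and 251555 FPKM in db_GFP and 480166 and 510561 FPKM in db_REG3B. Both db_REG3B libraries lay far above both db_GFP libraries for each gene. The log2 change was 1.01 for Ins1 (SE 0.06, limma adjusted p = 1.02e-06) and 0.99 for Ins2 (SE 0.06, adjusted p = 2.23e-06, and 0.0954 when no filter on low values was used). The insulin share of summed FPKM was 34.6 and 35.0% in db_GFP and 54.7 and 55.0% in db_REG3B. The Ins1 to Ins2 ratio was 0.313 in both db_GFP libraries and 0.338 and 0.296 in db_REG3B, so the groups overlapped (log2 difference 0.01, exact permutation p = 1.00, two-sided). With 2 libraries against 2, no such permutation test can go below 0.333.

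Iapp measured 54472 and 53257 FPKM in db_GFP and 53676 and 55302 FPKM in db_REG3B. The groups overlapped, and the log2 change of 0.02 had a 95% interval of -0.09 to 0.13 (adjusted p = 0.812). As a share of insulin, Iapp was 16.8 and 16.1% in db_GFP and 8.36 and 8.36% in db_REG3B, a log2 change of -0.98 (SE 0.04, adjusted p = 2.78e-09), close to the -0.96 of the median gene on this scale. Both db_GFP shares lay above those of every other library of the 4 tables, where the highest was 8.91%, although the tables were normalized separately. Relative to insulin, Pcsk2, Cpe, Scg5, Pcsk1n and Pam also lay above every other library in both db_GFP libraries, so this was not particular to Iapp.

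The convertases parted. Pcsk1 measured 68.9 and 66.7 FPKM in db_GFP and 128 and 132 FPKM in db_REG3B (log2 change 0.93, SE 0.04, adjusted p = 3.07e-07). Pcsk2, which completes the cut at the other basic pair, measured 1088 and 1044 FPKM in db_GFP and 1221 and 1268 FPKM in db_REG3B (0.22, SE 0.04, adjusted p = 0.00157). Neither gene overlapped between groups, and the change of Pcsk1 was the larger. The Pcsk2 to Pcsk1 ratio was 15.8 and 15.7 in db_GFP and 9.52 and 9.61 in db_REG3B, against 4.85 to 7.34 in all libraries of the other tables (exact permutation p = 0.333 in the db table). Relative to insulin, Pcsk1 was at 0.213 and 0.202 FPKM per 1000 insulin FPKM in db_GFP and at 0.1997 and 0.1995 in db_REG3B, slightly lower in both (log2 change -0.05, 95% interval -0.15 to 0.05, adjusted p = 0.269). Pcsk2 was lower relative to insulin (-0.77, adjusted p = 8.28e-09), by less than the median gene (-0.96).

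The convertase partners went the other way. Scg5, the chaperone of Pcsk2, measured 1091 and 1086 FPKM in db_GFP and 947 and 966 FPKM in db_REG3B (-0.19, adjusted p = 0.00243, and 0.0565 without db_GFP replicate 1). Pcsk1n, the proSAAS inhibitor of Pcsk1, measured 960 and 958 FPKM in db_GFP and 847 and 776 FPKM in db_REG3B (-0.24, adjusted p = 0.00226). Both were lower in both db_REG3B libraries. The ratio of inhibitor to convertase, Pcsk1n to Pcsk1, was 13.9 and 14.4 in db_GFP and 6.60 and 5.88 in db_REG3B, and that of Scg5 to Pcsk2 was 1.00 and 1.04 against 0.776 and 0.762. After median scaling, which sets the median gene ratio of all libraries equal, Scg5 (-0.09, adjusted p = 0.0545) and Pcsk1n (-0.14, adjusted p = 0.0529) no longer passed.

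The finishing steps differed too. Cpe measured 1976 and 1947 FPKM in db_GFP and 1908 and 1976 FPKM in db_REG3B, and the groups overlapped (-0.01, 95% interval -0.10 to 0.07, adjusted p = 0.790). Pam measured 351 and 350 FPKM in db_GFP and 246 and 260 FPKM in db_REG3B, lower in both libraries (-0.47, SE 0.04, adjusted p = 1.83e-05). Slc30a8 measured 154 and 147 FPKM in db_GFP and 233 and 249 FPKM in db_REG3B, higher in both (0.67, SE 0.05, adjusted p = 3.88e-06). Relative to insulin the lower values ran from -0.32 for Slc30a8 (adjusted p = 3.52e-05) over -1.01 for Cpe, -1.18 for Scg5 and -1.24 for Pcsk1n to -1.46 for Pam (adjusted p = 1.33e-10). Pcsk1 and Slc30a8 were the members above the median gene (-0.96) by the most on that scale.

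**Figure D2:**
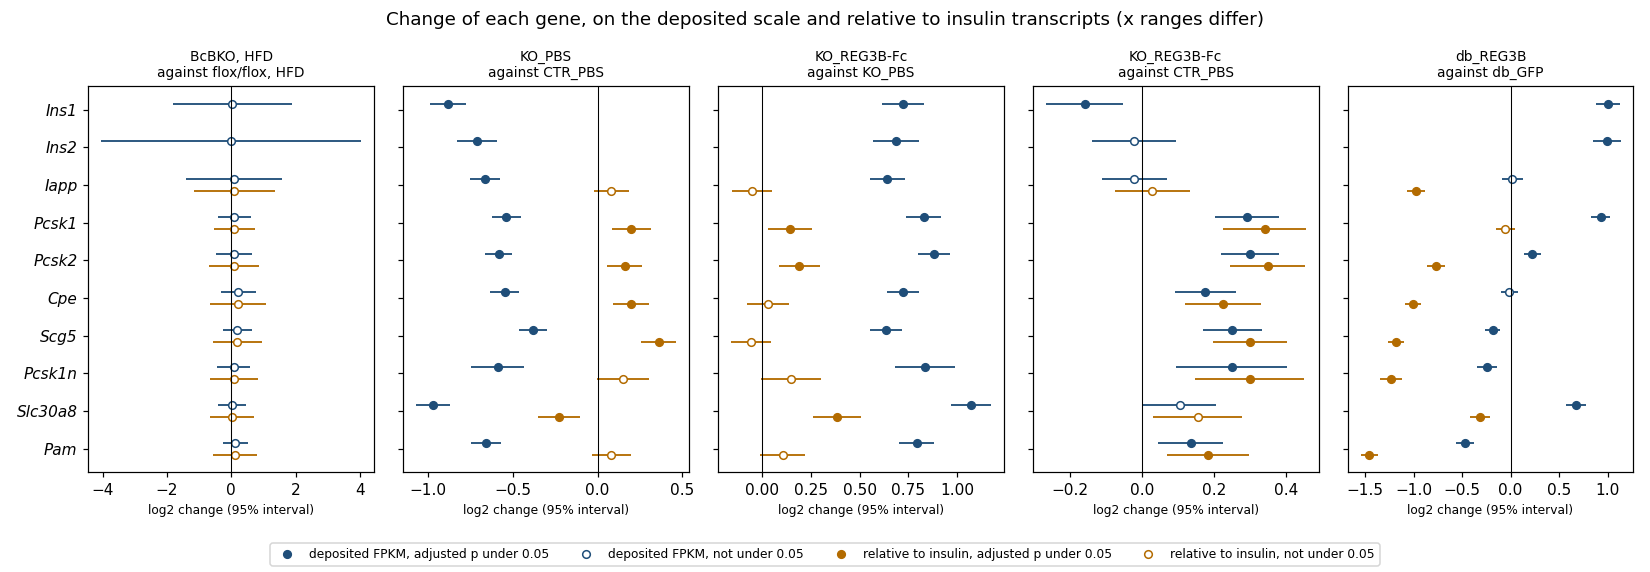
Log2 change of each gene in the 5 comparisons, with 95% intervals, on the deposited scale (blue) and relative to the sum of Ins1 and Ins2 (orange, 8 genes), filled where the adjusted p was under 0.05. In the right panel Ins1, Ins2 and Pcsk1 lie near 1 on the deposited scale, Iapp and Cpe at 0, and Pam at -0.47. The HFD panel has intervals as wide as -4.04 to 4.04 for Ins2, set partly by the trend of spread with abundance over all genes.

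The scale set some directions in the db table. After median scaling 5 members were higher (24.1% of all genes) and 1, Pam, was lower (24% of all genes). When libraries were set to an equal sum outside acinar genes, or to a set of other beta cell genes, Ins1 (0.66 and 0.61), Ins2 (0.65 and 0.59), Pcsk1 (0.59 and 0.54) and Slc30a8 (0.34 and 0.28) were still higher. Under the same scalings Iapp (-0.32 and -0.38) and Cpe (-0.36 and -0.41) passed as lower, and Pcsk2 turned sign (-0.12 and -0.17) and passed as lower. There 10378 and 10809 of all 12507 genes were lower and the median gene moved by -0.37 and -0.42. Iapp and Cpe were thus close to the median gene, and Pcsk2 fell by less than it. The authors' deposited table called 8 of the 10 genes in this comparison (27.4% of genes with an adjusted p), among them Iapp at a log2 fold change of 0.09 (adjusted p = 0.0499), and Cpe and Pcsk1n were not called.

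Markers of other islet cells moved in the db table. As deposited, 30.8% of all 12507 genes were lower and 12.2% higher, and the marker counts are to be read against that. All 7 alpha cell markers tested were lower in db_REG3B, and their share of summed FPKM was 4.48 and 4.52% in db_GFP and 1.91 and 1.88% in db_REG3B. Delta, PP and epsilon cell markers took 5.94 and 5.94% against 3.18 and 3.17%, with 3 of 6 lower and 1 higher. All 6 stellate markers were lower (0.141 and 0.138% against 0.0193 and 0.0199%), as were 7 of 8 immune markers tested (0.0838 and 0.0835% against 0.0330 and 0.0336%). Of the 9 beta cell markers, a list that includes Ins1, Ins2 and Iapp, 8 were higher and 0 lower. The part of these shares in the lower Pam, Scg5 and Pcsk1n was not tested.

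Other genes of the same route were followed as lists, with counts on the deposited scale, where 12.2% of all genes were higher and 30.8% lower. Under the equal sum outside acinar genes and the beta cell reference, where the median gene moved by -0.37 and -0.42, several counts turned. Of all 12507 genes, 10378 and 10809 were lower there and 296 and 217 higher, and the counts are to be read against that. The folding list then gave 5 higher and 12 lower, or 4 and 13 (medians -0.10 and -0.15). The granule list gave 1 higher and 11 lower under both, the zinc transporter list 0 and 11 under both, and the transcription factor list 2 and 9, or 1 and 9. The named genes of these lists below kept their direction and passed under both, other than Furin, whose values under these scalings are not reported here. The beta cell reference includes Ero1lb, Sytl4 and Mafa, so their values under it are not independent of it. Of 24 genes of proinsulin translocation and folding, 16 were higher and 2 lower in db_REG3B (median log2 change 0.24, against -0.06 over all genes), led by the oxidoreductases Ero1lb (289 to 528 FPKM, 0.87, adjusted p = 1.86e-07) and Ero1l (40.7 to 70.9 FPKM, 0.79). Of 12 other proprotein convertases and carboxypeptidases tested, 2 were higher and 7 lower (median -0.24), with Pcsk4 at 11.6 to 18.2 FPKM (0.61) and Cpxm1 at 15.2 to 1.96 FPKM (-2.46). Furin, the ubiquitous convertase of the Golgi, fell from 47.5 to 38.7 FPKM (-0.29, adjusted p = 0.00195). Granule proteins gave 5 higher and 3 lower of 13, among them Sytl4, a granule docking protein (46.3 to 83.7 FPKM, 0.84), and chromogranin B, Chgb (5230 to 2455 FPKM, -1.09). Of 15 insulin gene transcription factors tested, 6 were higher and 4 lower (median 0.02). Mafa, which binds the insulin promoter in mature beta cells, rose from 129 to 397 FPKM (1.61, adjusted p = 9.52e-09). Of 10 other islet prohormones tested, 7 were lower and 1 higher, with Gal (24.2 to 0.460 FPKM, -4.11) and Cck (73.6 to 9.15 FPKM, -2.88) named by size. Of 17 other zinc transporters tested, 7 were higher and 4 lower, with Slc39a1 (49.5 to 37.2 FPKM, -0.40) and Slc39a11 (24.9 to 14.4 FPKM, -0.75) the largest that met the naming rule.

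**Figure D3:**
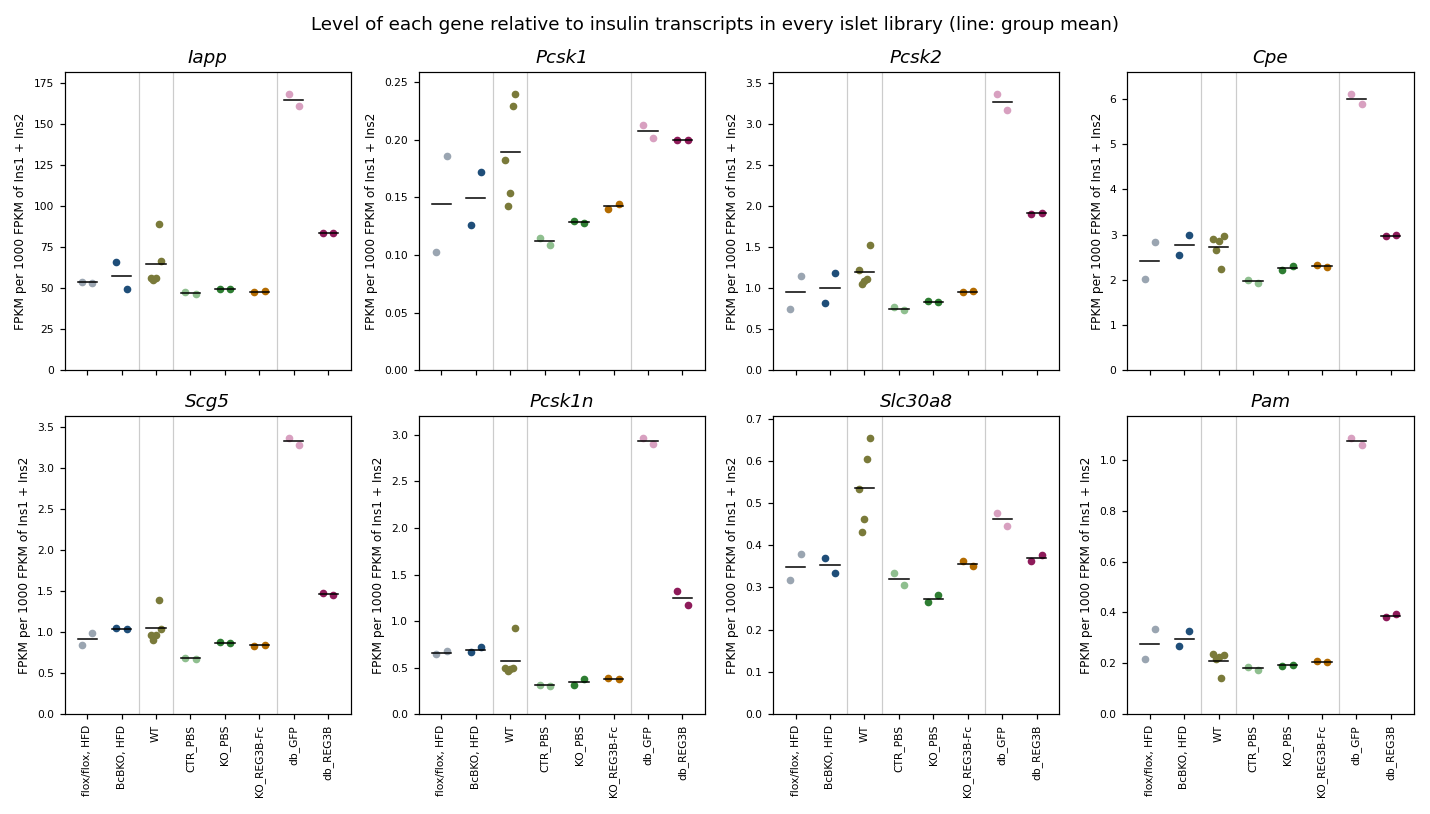
Level of the 8 other genes per 1000 FPKM of Ins1 and Ins2 (vertical axes from 0) in every library, by group, with a line at the group mean. In db_GFP, Iapp reaches 168 and 161 and Pam 1.09 and 1.06, above every other library, as are Pcsk2, Cpe, Scg5 and Pcsk1n there. Pcsk1 is at 0.213 and 0.202 in db_GFP against 0.1997 and 0.1995 in db_REG3B.

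The comparison of KO_PBS with CTR_PBS asked what the knockout changed in islets given PBS. All 10 genes were lower on the deposited scale, where 81.5% of all 11789 genes were lower and the median gene moved by -0.44. After median scaling Slc30a8 and Ins1 fell the most, followed by Ins2, Iapp, Pam and Pcsk2, while Pcsk1, Cpe and Pcsk1n did not pass and Scg5 rose. Ins2, Iapp, Pam and Pcsk2 turned to positive values when other beta cell genes were the reference, as did Pcsk2 with an equal sum outside acinar genes. Relative to insulin, Slc30a8 was lower, and Pcsk1, Pcsk2, Cpe and Scg5 were higher, 4 of 8 genes where 50.1% of all genes were higher, a share near the background.

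Ins1 measured 165526 and 174050 FPKM in CTR_PBS and 90887 and 93451 FPKM in KO_PBS. Ins2 measured 639898 and 666118 FPKM in CTR_PBS and 404393 and 393547 FPKM in KO_PBS. Both genes were lower in both KO_PBS libraries, and the insulin share of summed FPKM was 57.5 and 58.4% against 38.9 and 38.2%. The deposited log2 change was -0.88 for Ins1 (SE 0.05, adjusted p = 5.11e-07) and -0.71 for Ins2 (SE 0.05, adjusted p = 2.10e-06, and 0.0892 with no filter). After median scaling it was -0.39 for Ins1 (adjusted p = 0.00195) and -0.22 for Ins2 (adjusted p = 0.0495). The Ins1 to Ins2 ratio was 0.259 and 0.261 in CTR_PBS and 0.225 and 0.237 in KO_PBS, without overlap (log2 difference -0.17, exact permutation p = 0.333, the smallest possible). Relative to total insulin Ins1 was lower by the limma fit as well (-0.14, adjusted p = 0.0404).

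Iapp measured 38254 and 39077 FPKM in CTR_PBS and 24615 and 24230 FPKM in KO_PBS (deposited -0.66, median scaled -0.18, adjusted p = 0.0215 for the latter). Its share of insulin was 4.75 and 4.65% in CTR_PBS and 4.97 and 4.98% in KO_PBS (0.08, adjusted p = 0.172).

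Slc30a8 had the largest deposited decrease of the 10 genes, but did not pass with other beta cell genes as the reference (-0.11, adjusted p = 0.0766). It measured 270 and 257 FPKM in CTR_PBS and 131 and 137 FPKM in KO_PBS, lower in both. The change was -0.97 on the deposited scale (SE 0.05, adjusted p = 2.57e-07), -0.48 after median scaling (adjusted p = 3.45e-05) and -0.23 relative to insulin (SE 0.06, adjusted p = 0.00412), where 4.81% of all genes were lower. Without Ins1, it was the 1 lower member of the 8 on that scale.

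The processing enzymes were lower than in controls as deposited, but less so than insulin. Pcsk1 measured 92.6 and 91.7 FPKM in CTR_PBS and 64.1 and 62.4 FPKM in KO_PBS, and relative to insulin it was higher (0.20, SE 0.05, adjusted p = 0.00609). Pcsk2 measured 617 and 614 FPKM against 417 and 404 FPKM (relative to insulin 0.16, adjusted p = 0.0134, and 0.0700 without CTR_PBS replicate 2 or 0.0631 without KO_PBS replicate 1). The Pcsk2 to Pcsk1 ratio changed little, from 6.66 and 6.70 to 6.51 and 6.48. Scg5 measured 555 and 565 FPKM against 436 and 423 FPKM, the smallest deposited decrease of the group (-0.38), and was higher relative to insulin (0.36, SE 0.05, adjusted p = 1.88e-05). Cpe measured 1616 and 1628 FPKM against 1093 and 1127 FPKM (relative to insulin 0.20, adjusted p = 0.00381). Pcsk1n (253 and 255 against 155 and 184 FPKM) and Pam (151 and 147 against 94.2 and 93.9 FPKM) did not pass relative to insulin, though Pcsk1n did without KO_PBS replicate 1 (0.29, adjusted p = 0.000511). The median gene moved by 0.18 relative to insulin.

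After median scaling 6 members were lower (25.9% of all genes) and 1, Scg5, was higher (0.10, adjusted p = 0.0403, against 21.7% of all genes). Acinar markers moved with this comparison. All 30 acinar markers tested were higher in KO_PBS, and their share of summed FPKM was 20.2 and 20.0% in CTR_PBS and 41.0 and 42.2% in KO_PBS. Immune markers were higher as well, 8 of 9 tested, at 0.0125 and 0.0119% against 0.0316 and 0.0318%. As deposited, 1021 of all 11789 genes were higher in KO_PBS and 9603 lower. When libraries were set to an equal sum outside acinar genes, 3 of the 10 genes passed, where 3686 of all 11789 genes were higher and 1288 lower. Pcsk1 (0.065), Pcsk2 (0.025), Cpe (0.062), Scg5 (0.23) and Pcsk1n (0.018) turned sign, of which Scg5 passed as higher (adjusted p = 0.000945). Set to other beta cell genes, Ins1 (-0.02) and Slc30a8 (-0.11) no longer passed and the other 8 genes turned to positive values. All of these except Ins2 passed as higher (limma adjusted p from 2.30e-05 for Scg5 to 0.0231 for Pcsk1n). On that scale 8323 of all 11789 genes were higher and 330 lower, and the median gene moved by 0.28. The directions of those genes in this comparison thus depend on the scale. The authors' deposited table called 7 of the 10 in this comparison (25.9% of genes with an adjusted p), with log2 fold changes of -0.39 for Ins1, -0.22 for Ins2, -0.17 for Iapp, -0.48 for Slc30a8 and 0.11 for Scg5.

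Among the other genes of the route, median-scaled counts are given, to be read against 21.7% of all genes higher and 25.9% lower. The FPKM of named genes are as deposited, while the changes and adjusted p-values beside them are median scaled. With other beta cell genes as the reference 0 genes were lower in the folding, granule, convertase and zinc transporter lists, and 22 of 24, 7 of 13, 7 of 10 and 16 of 17 were higher. These counts are to be read against 8323 of all 11789 genes higher and 330 lower on that scale (median 0.28). That reference includes Ero1lb, Sytl4, Slc39a5, Mafa and some other transcription factors of the list, so their values under it are not independent of it. The insulin gene transcription factors gave 11 lower and 1 higher of 15 tested (median log2 change -0.32, against -0.04 over all genes), and 4 lower and 4 higher with other beta cell genes as the reference. Mafa went from 66.0 to 23.9 FPKM (-0.96, adjusted p = 5.69e-06) and Insm1, a zinc finger factor of endocrine cells, from 45.7 to 20.6 FPKM (-0.64). Of 24 translocation and folding genes 11 were higher and 3 lower (median 0.09). The peroxidase Prdx4 rose from 62.9 to 108 FPKM (1.25, adjusted p = 1.11e-07) and Ero1lb fell from 561 to 326 FPKM (-0.30), though it was at 0.075 with other beta cell genes as the reference. The acinar share moved with this list, and its part was not tested. Granule proteins gave 8 lower and 4 higher of 13, with Vamp2 (71.8 to 38.2 FPKM, -0.41) and Rab3a (-0.31), both of the exocytosis machinery, lower, though with that reference Vamp2 did not pass (-0.049) and Rab3a was at 0.051. Other convertases and carboxypeptidases gave 2 lower and 4 higher of 10 tested, with Mbtps1 not past the test (-0.083), though it passed as higher with that reference (0.28). Other zinc transporters gave 6 higher and 3 lower of 17, with Slc39a5 higher (22.6 to 45.4 FPKM, 1.45) and Slc30a9 lower (19.8 to 12.2 FPKM, -0.20), though with that reference it turned sign and passed as higher (0.15, adjusted p = 0.0239). Of 10 other prohormones tested 7 were higher and 1, Ucn3, was lower (244 to 88.8 FPKM, -0.97), and Gal was higher (7.25 to 14.7 FPKM, 1.38).

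The comparison of KO_REG3B-Fc with KO_PBS asked what REG3B-Fc changed in knockout islets, and it shares its KO_PBS libraries with the comparison above. All 10 genes were higher on the deposited scale, where 86.2% of all genes were higher and the median gene moved by 0.53. After median scaling Slc30a8, Pcsk2, Pcsk1n, Pcsk1, Pam and Cpe were higher (6 of 10, against 23.8% of all genes), none was lower (22.5% of all genes), and Ins1, Ins2, Iapp and Scg5 did not pass, but with other beta cell genes as the reference all except Slc30a8 turned to negative values. Relative to insulin Slc30a8, Pcsk2 and Pcsk1 were higher (3 of 8, against 12.4% of all genes).

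Ins1 measured 150251 and 153590 FPKM and Ins2 650818 and 634467 FPKM in KO_REG3B-Fc, above both KO_PBS libraries for each gene. The deposited log2 change was 0.72 for Ins1 (SE 0.05, adjusted p = 8.67e-07) and 0.69 for Ins2 (SE 0.05, adjusted p = 1.55e-06, and 0.0930 with no filter), and after median scaling 0.12 (adjusted p = 0.201) and 0.08 (adjusted p = 0.429). The Ins1 to Ins2 ratio was 0.231 and 0.242 and overlapped that of KO_PBS. Iapp measured 38133 and 38047 FPKM, 4.76 and 4.83% of insulin (relative to insulin -0.05, 95% interval -0.16 to 0.05, adjusted p = 0.417).

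Slc30a8 measured 290 and 277 FPKM in KO_REG3B-Fc against 131 and 137 FPKM in KO_PBS, the largest difference of the 10 genes on each of these scales. The change was 1.07 as deposited (SE 0.05, adjusted p = 1.43e-07), 0.47 after median scaling (adjusted p = 4.17e-05) and 0.38 relative to insulin (SE 0.06, adjusted p = 8.72e-05). Pcsk2 measured 759 and 757 FPKM (0.88 as deposited, 0.28 after median scaling with adjusted p = 0.000284). Relative to insulin the change of Pcsk2 was 0.19 (adjusted p = 0.00621, and 0.0551 without KO_REG3B-Fc replicate 2). Pcsk1 measured 112 and 114 FPKM (0.83 as deposited, 0.23 after median scaling with adjusted p = 0.00111). Relative to insulin the change of Pcsk1 was 0.14 (adjusted p = 0.0447), and it did not pass without any 1 of the 4 libraries (0.12 to 0.16, adjusted p up to 0.265) or with the replicate number as a block (adjusted p = 0.0523). Without KO_REG3B-Fc replicate 2 only 1 member passed relative to insulin.

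Scg5 measured 670 and 664 FPKM (0.63 as deposited, 0.03 after median scaling, adjusted p = 0.514). The Scg5 to Pcsk2 ratio was 1.05 in both KO_PBS libraries and 0.883 and 0.877 in KO_REG3B-Fc, without overlap. Cpe measured 1862 and 1805 FPKM (median scaled 0.12, adjusted p = 0.0355), Pcsk1n 308 and 297 FPKM (0.24, adjusted p = 0.0311, and relative to insulin 0.28, adjusted p = 0.000940, without KO_PBS replicate 2) and Pam 167 and 160 FPKM (0.19, adjusted p = 0.00203). All 3 lay above both KO_PBS libraries as deposited.

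The acinar share was 17.3 and 17.5% in KO_REG3B-Fc, with all 30 markers tested lower than in KO_PBS. Alpha cell markers took 1.07 and 1.11% against 0.458 and 0.476%, with 7 of 7 higher on the deposited scale. As deposited, 10157 of all 11789 genes were higher and 822 lower, so the alpha cell count is near the background. With an equal sum outside acinar genes 5 of the 10 genes passed, where 2531 of all 11789 genes were higher and 2572 lower. With other beta cell genes as the reference 9 of the 10 turned to negative values (from -0.035 for Pcsk2 to -0.28 for Scg5), Slc30a8 alone keeping its sign. Iapp, Cpe, Scg5 and Pam passed as lower there and Slc30a8 as higher. On that scale 7478 of all genes were lower and 413 higher (median -0.24), also the background of the list counts below with that reference. The median-scaled list counts are to be read against 23.8% of all genes higher and 22.5% lower. The authors' deposited table called 7 of the 10 here (24.1% of genes with an adjusted p), including Ins1 at 0.12 (adjusted p = 0.0267) and Ins2 at 0.10 (adjusted p = 0.0488). After median scaling the transcription factor list gave 13 higher and 1 lower of 15 (median 0.34, against 0.03 over all genes), and 2 higher and 3 lower with other beta cell genes as the reference, with Mafa at 23.9 to 66.6 FPKM (0.85, adjusted p = 1.16e-05). The folding list gave 5 higher and 11 lower of 24 (median -0.06), and 0 and 21 with other beta cell genes as the reference, with Ero1lb higher (326 to 581 FPKM, 0.23) and Hsp90b1, a chaperone of the endoplasmic reticulum, higher (249 to 437 FPKM, 0.20), though both were negative with other beta cell genes as the reference (-0.087 and -0.11). Granule proteins gave 8 higher and 2 lower of 13, and 1 and 5 with that reference, with Chga, the prohormone chromogranin A, at 2691 to 5724 FPKM (0.48). Other prohormones gave 7 higher and 3 lower of 10, with somatostatin, Sst, at 1505 to 4392 FPKM (0.94).

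The comparison of KO_REG3B-Fc with CTR_PBS asked whether treated knockout islets differed from untreated controls. As deposited, Pcsk1, Pcsk2, Cpe, Scg5, Pcsk1n and Pam were higher in KO_REG3B-Fc (6 of 10, against 16.8% of all genes), and Ins1 was lower (1 of 10, against 2.87%). Ins2 (-0.02, 95% interval -0.14 to 0.09), Iapp (-0.02, interval -0.11 to 0.07) and Slc30a8 (0.11, adjusted p = 0.128) did not pass. Relative to insulin the same 6 processing genes were higher, against 25.6% of all genes. The values were those given above, with both groups shared with the other PBS comparisons. Alpha cell markers took 0.535 and 0.520% of summed FPKM in CTR_PBS and 1.07 and 1.11% in KO_REG3B-Fc. Delta, PP and epsilon cell markers took 0.340 and 0.347% against 0.803 and 0.828%. The part of these shares in the higher processing genes was not tested.

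The size of these differences was small. Pcsk2 (0.30, SE 0.04, adjusted p = 0.000773) and Pcsk1 (0.29, SE 0.04, adjusted p = 0.00133) differed the most as deposited, followed by Scg5 (0.25, adjusted p = 0.00207) and Pcsk1n (0.25, adjusted p = 0.0329). Relative to insulin they were 0.35 for Pcsk2, 0.34 for Pcsk1, 0.30 for Scg5 and 0.30 for Pcsk1n. The deposited change of Ins1 was -0.16 (adjusted p = 0.0452, and 0.0633 with a pseudocount of 0.1), and its ratio to Ins2 was 0.231 and 0.242 against 0.259 and 0.261, without overlap (log2 difference -0.14, exact permutation p = 0.333). After median scaling 3 genes were higher, Pcsk1, Pcsk2 and Scg5 (4.95% of all genes), and 1, Ins1, lower (6.12% of all genes). Leaving out any 1 of the 4 libraries lowered the count of passing genes as deposited from 7 to 3 or 4, with Ins1 (adjusted p up to 0.258), Pcsk1n (up to 0.158) and Pam (up to 0.235) not passing in any of the 4 fits and Cpe (up to 0.0923) in 3 of them. Relative to insulin the count fell from 6 to 3 without CTR_PBS replicate 2. The transcription factor list gave 1 higher and 2 lower of 15 after median scaling, with Rfx6 not past the test (0.13), and the granule list 5 higher and none lower of 13, with Chgb (447 to 688 FPKM, 0.50) and Vgf (15.4 to 22.0 FPKM, 0.37). The folding list gave 5 higher and 2 lower of 24, with Creld2 (54.3 to 76.7 FPKM, 0.37) and Sec11c, a signal peptidase subunit (175 to 219.8 FPKM, 0.21). FPKM of these list genes are as deposited, and the changes beside them are median scaled.

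**Figure D4:**
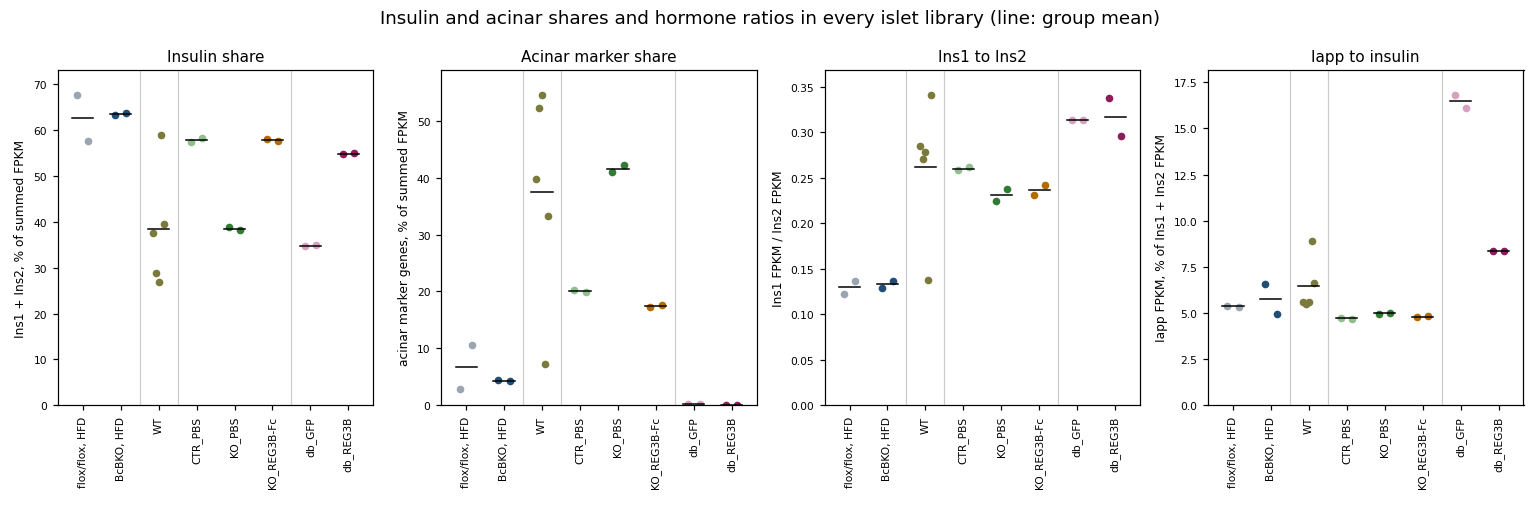
Share of insulin and of acinar marker genes in summed FPKM, the Ins1 to Ins2 ratio and Iapp as a percentage of insulin in every library, by group, with a line at the group mean and vertical axes from 0. KO_PBS has the lower insulin share (38.9 and 38.2%) and the higher acinar share (41.0 and 42.2%) of the PBS table, and the Ins1 to Ins2 ratio is 0.122 to 0.137 in the HFD libraries and in WT replicate 4.

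The HFD comparison asked what the ablation changed in mice on a high-fat diet. None of the 10 genes passed on the deposited scale (0.00865% of all 11560 genes did, 1 gene), after median scaling (0.00865%) or relative to insulin (0.0779%, 9 genes). Of the 11560 genes, 427 had an unadjusted p under 0.05 as deposited. The authors' deposited table called none of the 10 either (0.164% of its genes). The intervals ran past 1 log2 unit in both directions for Ins1, Ins2 and Iapp (-1.41 to 1.59 for the last). Those of the other 7 genes reached from -0.48 for Pcsk2 to 0.75 for Cpe. The fit set all these intervals partly from the trend of spread with abundance over all genes, not from these libraries alone. With 1 library left out the change ranged from -0.14 to 0.21 for Ins1, -0.26 to 0.26 for Ins2 and -0.17 to 0.35 for Iapp.

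For Ins1 the flox/flox libraries gave 96847 and 75698 FPKM and the BcBKO libraries 87066 and 88494 FPKM. Ins2 was at 793655 and 552949 FPKM in the flox/flox libraries, against 674266 and 647220 FPKM for BcBKO. Both BcBKO libraries lay between the flox/flox libraries for each gene. The log2 change was 0.04 for Ins1 (95% interval -1.81 to 1.89) and -0.0040 for Ins2 (interval -4.04 to 4.04), both at an adjusted p of 1.00. Acinar markers took 2.87 and 10.5% of summed FPKM in flox/flox and 4.35 and 4.25% in BcBKO, so the flox/flox library with less insulin had the larger acinar share. The Ins1 to Ins2 ratio was 0.122 and 0.137 against 0.129 and 0.137 (log2 difference 0.04, exact permutation p = 1.00).

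Iapp was at 48064 and 33459 FPKM in the controls (5.40 and 5.32% of insulin) and at 50175 and 36269 FPKM in BcBKO (6.59 and 4.93%). Pcsk1 measured 91.1 and 117 FPKM against 96.3 and 127 FPKM (0.10, 95% interval -0.42 to 0.61), and Pcsk2 669 and 722 against 625.1 and 873 FPKM (0.09, interval -0.48 to 0.66). The groups overlapped for these 3 genes. Replicate differences of the 2 groups correlated at 0.67 in this table, which overlap does not take into account, though the labels do not pair the replicates. With the replicate number as a block none of the 10 genes passed either. Cpe (1791 and 1778 against 1932 and 2206 FPKM, 0.21) and Scg5 (752 and 627 against 797 and 768 FPKM, 0.19) were higher in both BcBKO libraries, 2 of the 10 members without overlap where 30.1% of all genes had none. Pcsk1n (571 and 425 against 508 and 529 FPKM), Slc30a8 (284 and 238 against 282 and 247 FPKM) and Pam (195 and 212 against 204 and 240 FPKM) overlapped. No gene of the 6 other lists of the route passed as deposited, at list medians from -0.08 for other prohormones to 0.15 for other convertases and carboxypeptidases, against 0.08 over all genes.

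The WT libraries gave the spread of the group among wild-type pools. Insulin took 37.6, 28.8, 27.0, 59.0 and 39.5% of summed FPKM in replicates 1 to 5, and acinar markers took 39.8, 52.2, 54.6, 7.23 and 33.3%. The library with the highest insulin share had the lowest acinar share. Ins2 ranged from 256161 over a median of 281835 to 579577 FPKM and Ins1 from 71348 over 79598 to 104639 FPKM. Replicate 4 held the highest Ins2 value and a middle Ins1 value, so that its Ins1 to Ins2 ratio was 0.137, against 0.284, 0.270, 0.279 and 0.341 in replicates 1, 2, 3 and 5.

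Per 1000 insulin FPKM, most members varied less between WT pools than their FPKM did. Iapp measured 56.0, 55.1, 56.0, 89.1 and 66.4, and Cpe 2.91, 2.66, 2.86, 2.24 and 2.96 in replicates 1 to 5. Replicate 4 was the highest for Iapp and the lowest for Cpe. Pam measured 0.236, 0.218, 0.225, 0.141 and 0.234, lowest in replicate 4 as well. Pcsk1n measured 0.493, 0.463, 0.480, 0.491 and 0.922, highest in replicate 5. Over the 5 pools Pcsk1 ranged from 0.143 to 0.240, Pcsk2 from 1.04 to 1.53, Scg5 from 0.901 to 1.39 and Slc30a8 from 0.431 to 0.654.

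Genes with the most similar pattern were found by the root mean square difference of log2(FPKM + 1), centred on each table, over the 19 libraries, among 1731 genes with a mean of at least 20 FPKM in every table. For Ins1 they were Pgam1 (0.14), Gipr (0.16) and Ero1lb (0.17), and for Ins2 Sytl4 (0.13), Tpi1 (0.14) and Bnip3 (0.14). For Iapp they were Atraid (0.067), Hepacam2 (0.080) and Isg20 (0.091), and for Pcsk1 Elovl5 (0.14), Gng12 (0.15) and Maob (0.16). The median over all 1731 genes was 0.33 for Ins1, 0.32 for Ins2, 0.27 for Iapp and 0.34 for Pcsk1. The libraries share their table's normalization and their insulin and acinar shares, so these values are a description.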

How the data were processed

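The authors deposited FPKM values for all 19 libraries and TPM values for the 4 HFD libraries, per the file headers. They also deposited their own log2 fold changes and adjusted p-values for 4 comparisons. The authors used DESeq2 in the PBS and db tables, per the file headers. The build is GRCm38.p6 per the submitters' processing notes, and the aligner and the counting method are not given in the sources used here. FPKM were deposited to 2 decimals, whole reads were not recovered, and depth is unknown. Groups came from the labels. From the WT table, genes with a missing value (252) were left out.

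All groups of a table entered 1 limma fit (version 3.58.1, R 4.3.3, trended empirical Bayes) of log2(FPKM + 1), for genes reaching 1 FPKM in 2 or more libraries. Tests were two-sided, and p-values were Benjamini-Hochberg adjusted across the whole table, with 0.05 as threshold. The pseudocount of 1 shrinks log2 changes of low genes. The insulin scale divides each library by its Ins1 and Ins2 sum. Median scaling divides each library by its median ratio to the geometric mean library. Ratios were compared by exact permutation of libraries. Simulated data with known changes were used to check the code. The members, lists and alternatives were chosen with earlier results of these data known. Named genes were all 10 members and, from each list and comparison, up to 2 passing genes of largest deposited change whose groups did not overlap and whose higher group reached 5 FPKM. Some genes that met this rule are not reported here. Furin was chosen after its values were seen, and genes named from a list for a value after median scaling were named by their deposited change. Alternatives were no filter, a pseudocount of 0.1, replicate block, the 2 groups alone, each library left out, 3 scalings, 2 other denominators and TPM.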

Additional observations from a re-analysis of the deposited data

Results flagged for a closer look

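In the WT group 26 measures of the 5 libraries were tested for a library far from the others, and 4 had a gap to the nearest library above 0.71 of the whole range, where chance gives about 1 in 20. Iapp reached 58759 FPKM in replicate 4, against 18335 to 26477 FPKM in the other 4 libraries. Scg5 reached 916 FPKM in the same library, against 318 to 456 FPKM. Pam per 1000 insulin FPKM was lowest there, at 0.141 against 0.218 to 0.236. Pcsk1n per 1000 insulin FPKM was highest in replicate 5, at 0.922 against 0.463 to 0.493.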

How the results depend on the processing

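The replicate numbers do not pair the samples by the labels, and replicate differences of the compared groups correlated at 0.67 in the HFD table, -0.023 to 0.047 in the PBS table and -0.050 in the db table. With the replicate block, 89 of 90 member changes kept their direction and their side of the threshold, the exception being Pcsk1 relative to insulin for KO_REG3B-Fc against KO_PBS (0.14, adjusted p = 0.0523), and 8 members still passed as deposited in the db table. With 1 library left out, 303 of 360 member changes kept both, 29 lost the call, 3 gained it and 25 turned sign without a call. For KO_REG3B-Fc against CTR_PBS the deposited count ranged from 3 to 4 and the count relative to insulin from 3 to 6, and for KO_REG3B-Fc against KO_PBS the latter ranged from 1 to 3. Without the filter KO_REG3B-Fc against CTR_PBS gave 4 members in place of 7, with median scaling 4 members and with the beta cell reference 3. Deposited counts of 10 became 3 for KO_PBS against CTR_PBS with an equal sum outside acinar genes, and for KO_REG3B-Fc against KO_PBS 6 with median scaling, 5 with the equal sum and 5 with the beta cell reference. For KO_PBS against CTR_PBS, Scg5 reversed with median scaling (0.10), and with the equal sum Pcsk1 (0.065), Pcsk2 (0.025), Cpe (0.062), Scg5 (0.23) and Pcsk1n (0.018). With the beta cell reference Ins2 (0.15), Iapp (0.20), Pcsk1 (0.31), Pcsk2 (0.27), Cpe (0.31), Scg5 (0.47), Pcsk1n (0.27) and Pam (0.19) reversed there. For KO_REG3B-Fc against KO_PBS the same reference reversed Ins1 (-0.20), Ins2 (-0.23), Iapp (-0.28), Pcsk1 (-0.080), Pcsk2 (-0.035), Cpe (-0.20), Scg5 (-0.28), Pcsk1n (-0.077) and Pam (-0.12). In the db table the equal sum and the beta cell reference reversed Iapp (-0.32 and -0.38) and Pcsk2 (-0.12 and -0.17). These reversals follow from the construction of the scalings, which shift all genes of a library by 1 factor, and which scale is right was not tested. Relative to insulin, 2 other denominators, TPM, the pseudocount and the 2 groups alone reversed no change that passed, Pcsk1 in the db table turned to 0.05 (adjusted p = 0.275) over Ins1, Ins2 and Iapp, and every db call on that scale held with each library left out. Depth is unknown, so sampling error could not be separated from the spread between libraries.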
